A study of Ginkgo biloba with 15 samples.

Results

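The miR396 family was followed in embryos of Ginkgo biloba, a gymnosperm tree, by sequencing of small RNA. Its members were the names in the deposited miRNA count table that hold miR396 with no further digit, and there were 33 of them among 361 names. Embryos came from trees growing under natural conditions on a university campus and were taken at 3 times, in September and November of 2015 and in February of 2016, with no treatment or genotype given. Each month had 3 small-RNA libraries, which their titles number 1 to 3, and no label says whether these came from separate trees or seeds, so p-values measure only the spread between libraries, which may be technical. The study's title names embryo development and dormancy as its subject. The organ label was not checked against marker genes here.

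miR396 is a conserved plant microRNA that, in Arabidopsis and rice, pairs with transcripts of growth-regulating factors, transcription factors that keep cells of young organs dividing. Its precursor is a hairpin, and the 5p strand is the one known to guide silencing, while the 3p strand, its partner in the duplex, is usually the less abundant of the pair. In Arabidopsis, TCP transcription factors, themselves targets of miR319, raise miR396 and so link both families in the arrest of organ growth.

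The names are those of other plants in which a matching sequence was catalogued, under 18 species prefixes such as ath for Arabidopsis thaliana, vvi for grape, csi for sweet orange, ptc for poplar and ama for Avicennia marina. Only 2 names came from conifers, pab-miR396a-3p of spruce and pde-miR396 of pine. Of the 33 names, 13 shared all 9 counts with another miR396 name, and grouping these left 25 distinct rows of counts. Sharing at low counts carries little weight, since 5 of these names held 1 read in all. At higher counts, ama-miR396-3p, ath-miR396b-3p and pab-miR396a-3p shared a row of 4434 counts. A row of 1737 counts was shared by ath-miR396a-5p, gma-miR396h and zma-miR396g-3p, so names of both arms stood on 1 row. The arm in a name is therefore that of the catalogued plant and was not read from these libraries.

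Several further rows were nearly the same. Those of ath-miR396b-5p and vvi-miR396b held 23345 and 23261 counts and differed by 84 counts over the 9 libraries. The rows of csi-miR396e-5p and ptc-miR396g-5p differed by 1 count in 5335, as did those of gma-miR396b-3p and ptc-miR396e-3p in 301. Each of these pairs moves as a single measurement below. Merging rows whose summed difference was at most 2% of the larger total left 22 forms, and shares of the family are given over these forms unless stated otherwise.

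A total of 18 names, on 14 distinct rows, held at least 10 counts in at least 3 libraries and were tested. The other 15 names stood on 11 rows of 1 to 54 counts in all, and together made up 0.276% of the counts of the distinct rows. Among them smo-miR396, a name of the lycophyte Selaginella, held 54 counts and pde-miR396 held 7. Small-RNA libraries held 90008 to 1269029 counts under all miRNA names, and levels are given in counts per 1000000 of that total (CPM). A count of 0 allows up to 3 counts, which is 2.36 to 33.3 CPM depending on the library, and covers counting error only. miR396 names took 1.01% to 3.21% of all counts.

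In each month the mix of miR396 forms in library 3 differed from that in libraries 1 and 2. For that reason values are given per library, and month differences of the leading rows, their ratios and the 3p share are also given without these libraries where they move by over 1.5 times. In bulk tissue, fewer cells holding a miRNA and less of it per cell cannot be told apart.

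A single 5p form led the family in every library. The row of ath-miR396b-5p, with its near-copy vvi-miR396b, took 64.0%, 70.3% and 69.2% of miR396 counts in September libraries 1, 2 and 3. In November it took 56.8%, 57.9% and 47.8%, and in February 53.4%, 50.8% and 49.6%. Its share was thus larger in each September library than in any later library. The mean difference was −13.7 percentage points from September to November and −16.6 from September to February (2-sided exact permutation p = 0.1 for both, the smallest that 3 libraries against 3 can give). Between November and February it was −2.87 points, lower in 2 of 3 numbered pairs (exact permutation p = 0.4), and −5.20 without the libraries numbered 3. With near-identical rows left unmerged, the differences from September were −6.24 and −8.58 points.

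**Figure D1:**
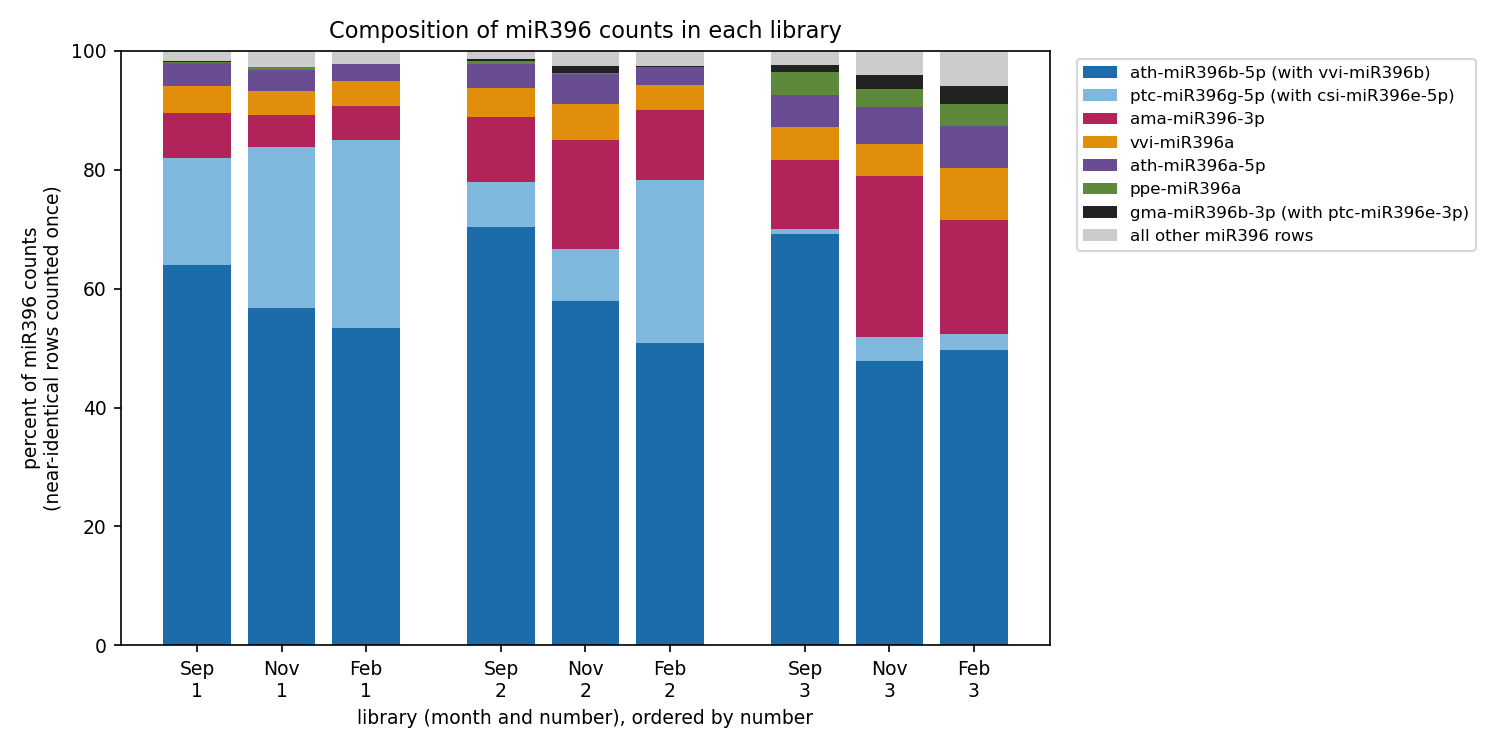
Share of miR396 counts (percent, y axis) taken by each form in each of the 9 libraries, ordered by library number and, within a number, by month. Near-identical rows are counted once. The dark blue form ath-miR396b-5p is the largest part of every bar, and the light blue form ptc-miR396g-5p is between 0.874% and 4.04% in the libraries numbered 3.

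The level of ath-miR396b-5p was likewise highest in the September libraries. It stood at 5569, 9603 and 10847 CPM in September libraries 1, 2 and 3, at 3269, 4688 and 2189 CPM in November and at 4420, 3485 and 4169 CPM in February. Every September library was above every November and February library, and the November and February ranges overlapped. Month means were 8673 ± 2759, 3382 ± 1253 and 4025 ± 484 CPM (SD, n = 3).

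The difference in ath-miR396b-5p between September and November did not pass the test across all names. On the log2 scale November lay at −1.47 against September (SE 0.53, edgeR adjusted p = 0.997). November was lower in 3 of 3 numbered pairs, which the separation of the months already implies. Without the libraries numbered 3 the log2 fold change was −0.89 (edgeR adjusted p = 0.83). From September to February it was −1.18 (SE 0.53, edgeR adjusted p = 0.845), again lower in 3 of 3 pairs, and from November to February 0.29 (SE 0.52, edgeR adjusted p = 0.983). That last value was 0.05 without the libraries numbered 3 and turned to −0.089 when only those months were fitted. With the library number as a block, September to November was −1.51 (SE 0.47, edgeR adjusted p = 0.654). September to February was then −1.22 (SE 0.47, edgeR adjusted p = 0.149). November to February stayed at 0.29 (SE 0.46, edgeR adjusted p = 0.743).

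Against the background of all 145 tested names, months rarely separated. Names whose September libraries all lay above all November libraries numbered 3, or 2.07%, and 2 of these were ath-miR396b-5p and vvi-miR396b. In the same comparison 2 of 145 names had an unadjusted edgeR p under 0.05, and both were again this pair, which counts as a single measurement. Between September and February 6.9% of names were higher in all September libraries, 10 names in all, and the same pair was among them. In the other direction, 4.14% of names were higher in CPM in all February libraries, among them ptc-miR396f, described below. No miR396 name was among the 6.21% of names higher in all November than all September libraries, or among the 4.83% and 2.76% higher in all November and in all February libraries of the later comparison.

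A second 5p form was shared by csi-miR396e-5p and ptc-miR396g-5p. The row of csi-miR396e-5p held 1559, 1045 and 137.1 CPM in September libraries 1, 2 and 3, 1555, 711.0 and 185.1 CPM in November, and 2613, 1882 and 227.9 CPM in February. In every month library 1 was highest and library 3 lowest, and the 3 libraries numbered 3 lay below all others. The ranges of the months overlapped, with means of 913.6 ± 720, 817.0 ± 691 and 1574 ± 1222 CPM (SD, n = 3).

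Within each library number the February CPM of csi-miR396e-5p was the highest of the 3 months. For number 3 that order depended on scaling. With the scaling factors used in the tests (TMM), libraries numbered 3 stood at 153.2 in September, 220.0 in November and 160.6 in February. February 3 holds 34 counts of this row. The spread between numbers set a wide error on the month differences. February against November stood at 0.98 on the log2 scale (SE 1.30, edgeR adjusted p = 0.983), with its near-copy the highest of the 14 rows in that comparison, and from September to February it was 0.80 (SE 1.30, edgeR adjusted p = 0.901). November against September stood at −0.18 (SE 1.29, edgeR adjusted p = 0.997), and that sign depended on the libraries fitted. With the library number as a block the SE of these differences was 0.54 to 0.56. September to November was then −0.03 (edgeR adjusted p = 0.967). November to February was 0.78 (edgeR adjusted p = 0.517) and September to February 0.75 (edgeR adjusted p = 0.43). With the block ptc-miR396f was the highest row from November to February instead, at 0.90 (SE 0.59, edgeR adjusted p = 0.494).

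The balance of both 5p forms was compared within libraries, which needs no scaling between them. As a percentage of ath-miR396b-5p counts, csi-miR396e-5p stood at 28.0%, 10.9% and 1.26% in September libraries 1, 2 and 3. It stood at 47.6%, 15.2% and 8.46% in November and at 59.1%, 54.0% and 5.47% in February. The September value was the lowest within each number, and the ranges of the months overlapped because the numbers differed so widely. The log2 ratio of the forms differed by 1.33 from September to November (exact permutation p = 0.5) and by 1.83 from September to February (exact permutation p = 0.4), higher in the later month in 3 of 3 pairs each time. Between the later months it differed by 0.51 (exact permutation p = 0.8), higher in 2 of 3 pairs. Single libraries set the size of these differences. Without the libraries numbered 3 the first was 0.62 and the last 1.07, and without September 3 alone the differences from September were 0.066 to November and 0.57 to February.

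**Figure D2:**
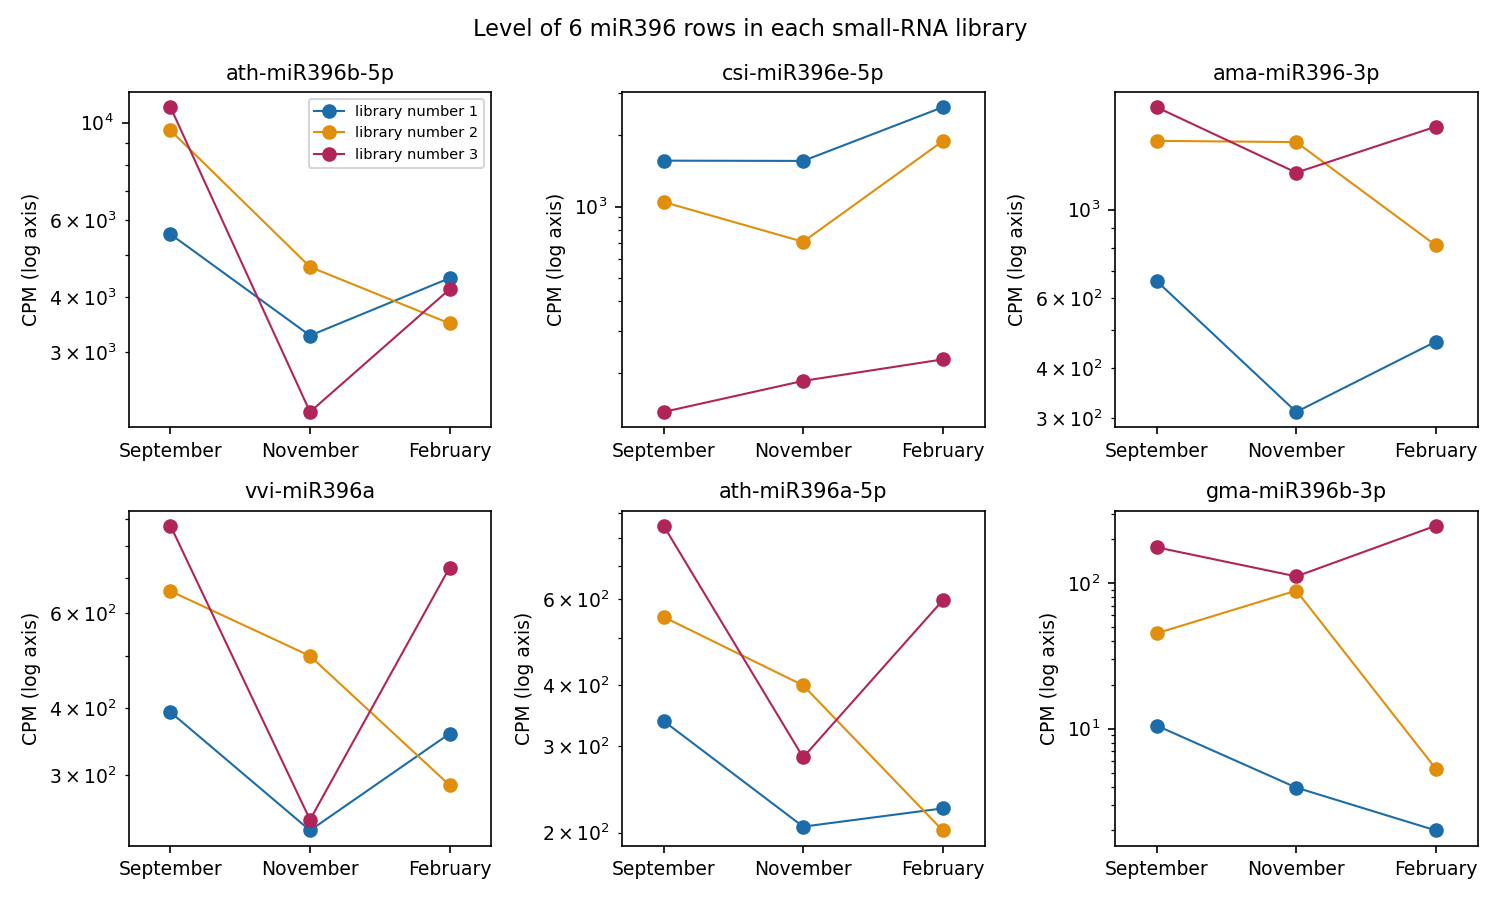
Level in CPM (log y axis, own scale per panel) of 6 miR396 rows in each small-RNA library, by month, with a colour per library number and thin lines joining libraries of the same number. In ath-miR396b-5p all September points lie above all later points, while in csi-miR396e-5p the libraries numbered 3 lie below all others at 137.1 to 227.9 CPM.

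Among names marked 3p, the row shared by ama-miR396-3p, ath-miR396b-3p and pab-miR396a-3p held the most counts. It stood at 661.7, 1488 and 1808 CPM in September libraries 1, 2 and 3, at 310.5, 1478 and 1239 CPM in November and at 466.2, 813.4 and 1615 CPM in February. Library 1 was lowest in every month and the months overlapped. Its log2 differences were −0.54 (SE 0.71, edgeR adjusted p = 0.997) from September to November, −0.12 (SE 0.70, edgeR adjusted p = 0.99) from November to February and −0.67 (SE 0.71, edgeR adjusted p = 0.882) from September to February. Without the libraries numbered 3 the values from September to November and from November to February were −0.29 and −0.36.

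This 3p row held fewer counts than the leading 5p row in each library. Counts of ama-miR396-3p came to 11.9%, 15.5% and 16.7% of those of ath-miR396b-5p in September libraries 1, 2 and 3, to 9.50%, 31.5% and 56.6% in November and to 10.5%, 23.3% and 38.7% in February. September values were close to each other, while November and February values spread with the library number. The log2 ratio differed by 0.82 from September to November (exact permutation p = 0.4), by −0.28 from November to February (exact permutation p = 0.8) and by 0.55 from September to February (exact permutation p = 0.5). Without the libraries numbered 3 these were 0.35, −0.14 and 0.21. The first ranged from 0.25 without November 3 to 1.54 without November 1, and the last from 0.11 without February 3 to 1.05 without February 1. Whether both rows come from the same hairpin cannot be read from the names.

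Across the whole family, 10 distinct rows carried only 3p among their marked names, 4 only 5p, 1 both and 10 no arm. Rows marked 3p took 6.78% ± 2.19 of the counts of the distinct rows in September (SD, n = 3), against 12.8% ± 9.56 in November and 9.44% ± 7.85 in February. Rows marked 5p took 48.2% ± 6.68, 47.2% ± 12.1 and 52.6% ± 14.9. Rows with no arm took 42.5% ± 3.99, 37.0% ± 2.28 and 35.4% ± 5.48, most of which was vvi-miR396b, a near-copy of ath-miR396b-5p. Nearly the same counts stand under both 5p and no arm, lowering the 3p share. With near-identical rows counted once, ath-miR396b-5p alone took 64.0% to 70.3%, 47.8% to 57.9% and 49.6% to 53.4%. On that count ama-miR396-3p alone took 7.61% to 11.5%, 5.39% to 27.05% and 5.64% to 19.2%. In each library this exceeded the share of all 3p rows among distinct rows. The 3p share compared below is that of distinct rows. The 3p share differed by 6.03 percentage points from September to November (exact permutation p = 0.4), by −3.38 points from November to February (exact permutation p = 0.6, lower in 3 of 3 pairs) and by 2.65 points from September to February (exact permutation p = 0.8). Without the libraries numbered 3 the first was 2.38 points, and the sign of the last turned, to −0.64 points. The first was 1.29 points without November 3 and 10.8 points without November 1.

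The other rows marked 3p were rarer. The rows of gma-miR396b-3p, ptc-miR396e-3p and fve-miR396b-3p held 301, 300 and 259 counts in all, and cca-miR396a-3p held 87. Below the minimum for testing stood csi-miR396a-3p with 46 counts, osa-miR396c-3p with 9, ptc-miR396g-3p with 5, the shared row of ath-miR396a-3p and gma-miR396a-3p with 3, and that of osa-miR396a-3p and stu-miR396-3p with 1. Of the rarer rows, gma-miR396b-3p shows the largest span, with 10.5, 45.2 and 176.3 CPM in September libraries 1, 2 and 3, 3.94, 88.9 and 111.3 CPM in November and 2.001, 5.32 and 248.0 CPM in February. Library 3 was highest in each month. The February values of libraries 1 and 2 rest on 1 and 2 counts.

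Also present at intermediate levels were a pair of rows with no single arm in their names. The level of vvi-miR396a was 392.8 to 874.4 CPM in September, 236.4 to 500.0 CPM in November and 287.1 to 730.6 CPM in February. That of ath-miR396a-5p, the row with names of both arms, was 338.2 to 847.8, 205.7 to 400.0 and 202.0 to 596.6 CPM. The months overlapped for both. Against September their November log2 fold changes were −1.15 (SE 0.59) and −1.10 (SE 0.63), with an edgeR adjusted p of 0.997 for each.

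No row with the lowest or highest fold change of a month comparison passed the test, and apart from csi-miR396e-5p and its near-copy these were rarer rows. The lowest log2 fold change from September to November was that of ppe-miR396a, a name of peach, at −1.83 (SE 1.78, edgeR adjusted p = 0.997). It stood at 16.8, 67.9 and 601.6 CPM in September libraries 1, 2 and 3 and at 24.4, 22.2 and 136.2 CPM in November, so that library 3 set the September mean. Without September 3 the log2 fold change was 0.89 (edgeR adjusted p = 0.902). With the library number as a block it was −1.04 (edgeR adjusted p = 0.846), and ath-miR396b-5p was the lowest row at −1.51.

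The highest value in the same comparison was that of ptc-miR396f, a poplar name, at 0.51 (SE 0.86, edgeR adjusted p = 0.997). It held 58.8, 40.7 and 13.99 CPM in September libraries 1, 2 and 3, 82.0, 55.6 and 29.1 CPM in November and 132.1, 103.7 and 73.7 CPM in February. Within each number its level was lowest in September and highest in February. In CPM no February library overlapped September. With the scaling factors used in the tests (TMM) these months overlapped, since February 3 stood at 52.0 and September 1 at 76.6. The row of ptc-miR396f rests on 5 to 104 counts per library. The log2 fold change from September to February was 1.36 (SE 0.87, edgeR adjusted p = 0.882). The lowest value from November to February and from September to February was that of cca-miR396a-3p, at −0.81 (SE 0.98, edgeR adjusted p = 0.983) and −1.88 (SE 0.99, edgeR adjusted p = 0.882). It rests on 1 to 37 counts per library. With the block, ppe-miR396a was lowest in both comparisons instead. It stood at −1.08 (SE 0.80, edgeR adjusted p = 0.534) and −2.12 (SE 0.76, edgeR adjusted p = 0.131).

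Taken as a sum over all 33 names, miR396 was highest in September. The sum was 17828, 28416 and 32086 CPM in September libraries 1, 2 and 3, 11618, 17332 and 10102 CPM in November and 16682, 14248 and 17448 CPM in February. All September libraries lay above all later ones, by a narrow margin for September 1. Names listing the same reads enter this sum more than once, and with near-identical rows counted once the means were 12679 ± 3592, 6146 ± 1792 and 7845 ± 857 CPM (SD, n = 3). On that count September 1 (8699 CPM) still lay above November 2 (8099 CPM) and February 3 (8406 CPM). The form ath-miR396b-5p took 64.0% to 70.3% of that count in September. Of the 14 tested rows, only ath-miR396b-5p and its near-copy vvi-miR396b were higher in all September libraries than in all November or all February libraries. The order of the sum therefore largely restates that form, and the sum without it was not tested.

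Families were tested as such sums, 35 of 65 reaching the minimum. For miR396 the log2 fold change from September to November was −1.11 (SE 0.46, edgeR adjusted p = 0.885). The November sum was lower in 3 of 3 pairs, which the separation of the months already implies. No family was called there by edgeR, 0% of those tested, and 2 families, or 5.71%, had all September libraries above all November libraries, miR396 and miR482. From September to February it was −0.79 (SE 0.45, edgeR adjusted p = 0.532), lower in 3 of 3 pairs. In that comparison 14.3% of families were higher in all September libraries and 2.86% were called, which was miR319. Between November and February miR396 differed by 0.32 (SE 0.45, edgeR adjusted p = 0.817), where 0% of families were called. Without the libraries numbered 3, the values were −0.65 (edgeR adjusted p = 0.612) from September to November, 0.16 (edgeR adjusted p = 0.743) from November to February and −0.49 (edgeR adjusted p = 0.629) from September to February.

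No single miR396 name was called between months. By edgeR 0 of the 18 tested names passed in each of the 3 comparisons, where 0% of all 145 names did. Those with an unadjusted p under 0.05 numbered 2 from September to November, 0 from November to February and 0 from September to February, beside 2, 5 and 7 of all 145 names. DESeq2 also called 0 miR396 names in each comparison, beside 0%, 2.76% and 3.45% of all names, with 6, 0 and 5 at an unadjusted p under 0.05, beside 7, 11 and 15 of all names. Those 6 names stand on 4 distinct rows, ath-miR396a-5p, ath-miR396b-5p, vvi-miR396b and vvi-miR396a. With the library number as a block, edgeR called 0 miR396 names as well, beside 0%, 0% and 3.45% of all names, with 2, 0 and 4 at an unadjusted p under 0.05, beside 5, 14 and 31 of all names. Among families, miR396 was not called with the block either, where 0%, 2.86% and 8.57% were.

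Directions of the rows are given as counts. From September to November 13 of 14 rows had a fold change below 0, with a median of −0.81 on the log2 scale over the 18 names, beside 0.20 over all names tested. From September to February 11 of 14 rows were below 0, with medians of −0.68 and 0.03. From November to February 9 of 14 rows were above 0, with medians of 0.08 and −0.18. That last direction depended on scaling, since 11 of the 18 names were above 0 with TMM, 8 with RLE and 17 with upper quartile scaling, where the median of all names was 0.06. These rows share reads and libraries, so their counts are a description.

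**Figure D3:**
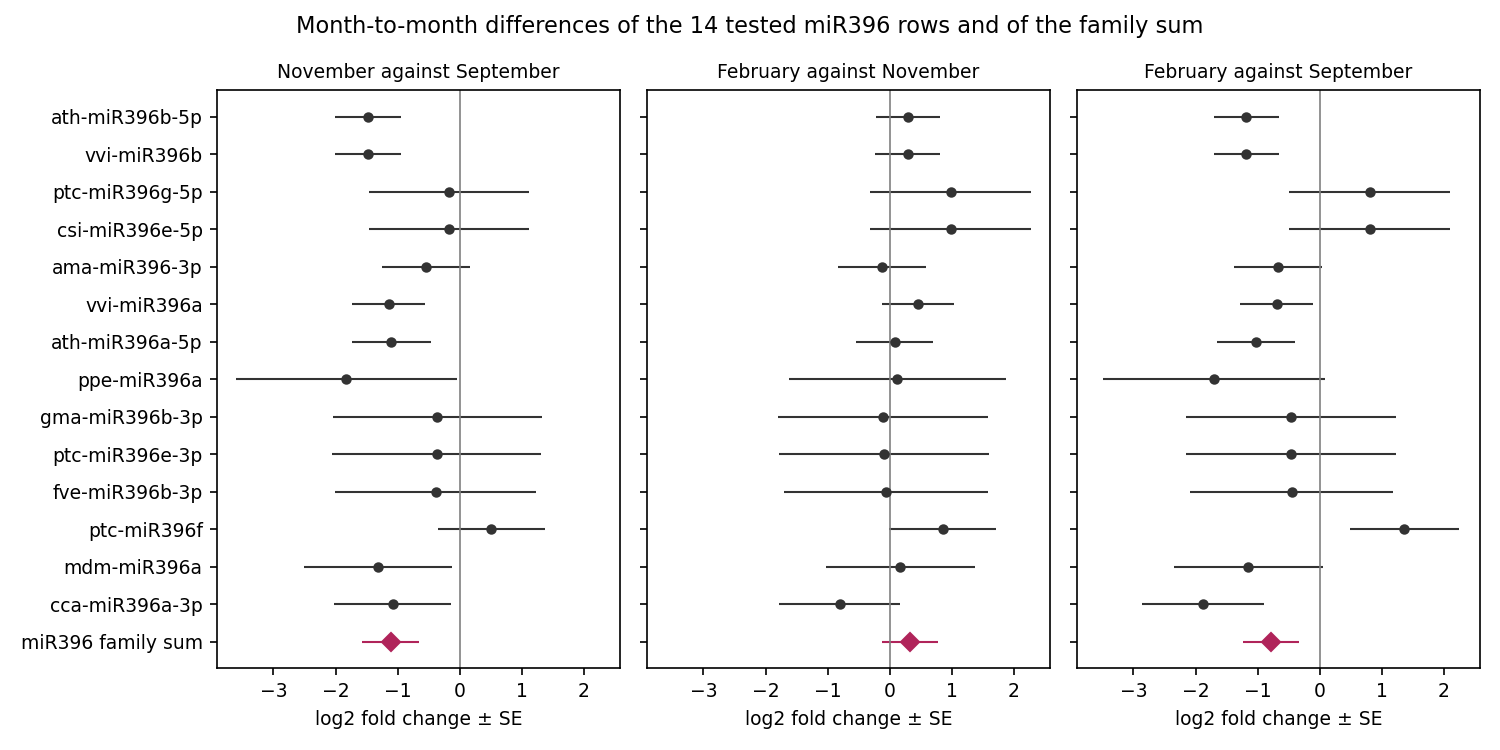
Log2 fold changes (x axis) with standard errors for the 14 tested miR396 rows (dots) and the sum of the family (diamond) in each month comparison, from edgeR. From September to November 13 of 14 rows lie below 0, and none passed the threshold in any comparison.

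The miR396 forms also differed by library number. The libraries numbered 3 were compared with numbers 1 and 2 in the fit with month and number, a comparison chosen after these values were seen. It called 7 of the 18 miR396 names, beside 43.4% of all 145 names, so that the share of names called was near the background. These names stand on 7 of the 14 distinct miR396 rows tested. The share called among all distinct rows was not computed. The 7 names went both ways, with 5 higher, beside 31.7% of all names, and 2 lower, beside 11.7%. The 2 lower names were csi-miR396e-5p and its near-copy ptc-miR396g-5p, which count as a single measurement. The 5 higher names include another pair of near-copies, gma-miR396b-3p and ptc-miR396e-3p. Libraries numbered 1 held 476060 to 1269029 counts, those numbered 2 held 90008 to 376186 and those numbered 3 held 149187 to 961558, and the part of depth was not tested.

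Among the called rows, csi-miR396e-5p was lower in libraries numbered 3 by a log2 fold change of −3.02 (SE 0.55, edgeR adjusted p = 0.00108), in 3 of 3 months. At the other end ppe-miR396a was higher by 4.07 (SE 0.63, edgeR adjusted p = 0.000397) and gma-miR396b-3p by 3.76 (SE 0.66, edgeR adjusted p = 0.000929), each in 3 of 3 months. These 3 calls held under all 15 alternatives run, which reuse the libraries whose values led to the comparison and are no separate support. That of mdm-miR396a, an apple name, at 2.06 (SE 0.71, edgeR adjusted p = 0.0351), was kept in 4 of 15, with an adjusted p of 0.0115 to 0.383. Low counts in libraries numbered 1 and 2 limit the size of the higher values. There ppe-miR396a held 2 counts in each of November 2, February 1 and February 2. In February 1 and 2 gma-miR396b-3p held 1 and 2 counts.

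The leading 5p and 3p rows did not pass this test with all libraries. The 5p form ath-miR396b-5p differed by −0.08 (SE 0.40, edgeR adjusted p = 0.881) and the 3p form ama-miR396-3p by 0.99 (SE 0.37, edgeR adjusted p = 0.0518). With upper quartile scaling they stood at −1.14 (edgeR adjusted p = 0.0507) and 0.0058 (edgeR adjusted p = 0.989). Without February 3, ama-miR396-3p passed, at 1.13 (edgeR adjusted p = 0.0336). The family sum differed by 0.04 (SE 0.31, edgeR adjusted p = 0.902), while 17.1% of families were called and the median of the 35 families was also 0.04. These values depend on scaling, since the median over all names was 0.74 with TMM, 0.18 with RLE and −0.27 with upper quartile scaling. The sum stood at −0.54 with RLE and −1.01 with upper quartile scaling. What distinguishes the libraries numbered 3 is not given in the labels, and its part in the month differences was not tested.

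**Figure D4:**
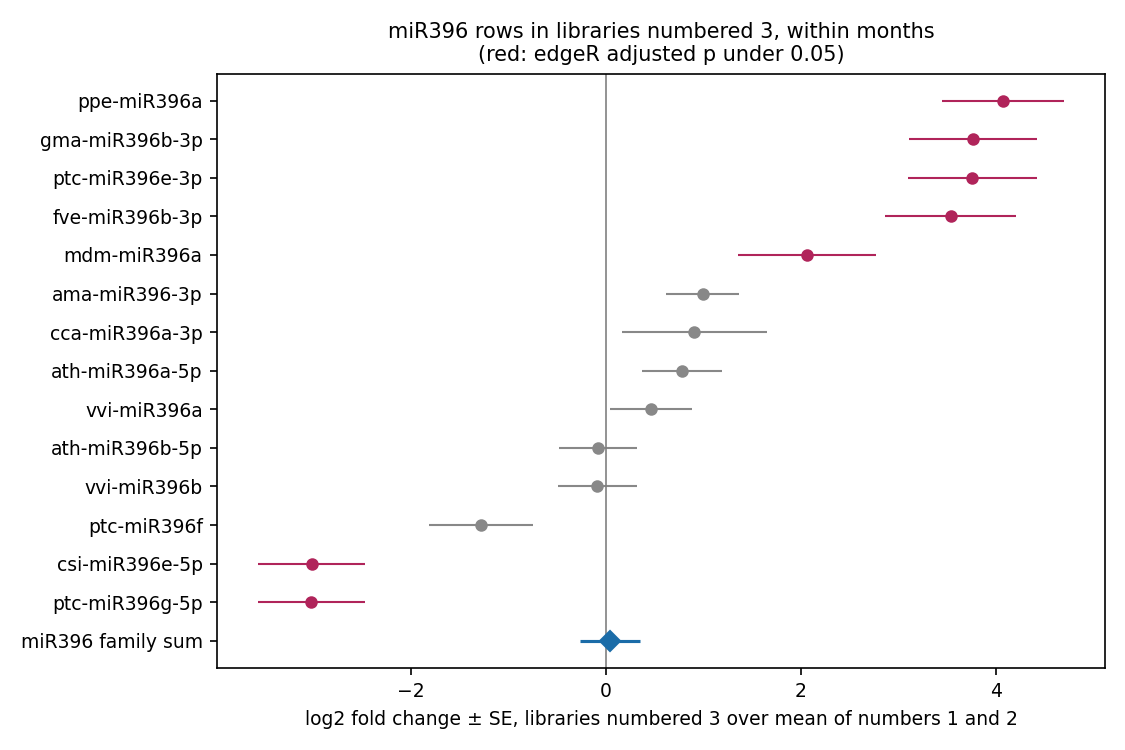
Log2 fold change (x axis, with SE) of libraries numbered 3 over the mean of numbers 1 and 2 within months, for the 14 tested miR396 rows and the family sum (diamond), from edgeR with TMM factors. Rows span −3.02 to 4.07 while the sum lies at 0.04. Red rows passed an adjusted p of 0.05.

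Among the other 34 tested families, the level of miR482 was most like that of miR396 over the 9 libraries, with Pearson's r of 0.68 (Spearman's rho 0.88) on log2(CPM + 1) with TMM factors. By Pearson's r the next were miR159 (r 0.43, rho 0.33) and miR2950 (r 0.42, rho 0.33), while by Spearman's rho they were miR160 (0.58) and miR162 (0.53). The least alike were miR858 (r −0.63), miR536 (r −0.62) and miR6173 (r −0.61). All share the same libraries, scaling and library numbers, and these values are descriptions with no test.

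Of 11 other families known for roles in organ growth and meristems, 10 were tested (miR156, miR159, miR160, miR164, miR166, miR167, miR171, miR319, miR390 and miR394). From September to November 0 of the 10 were called in either direction, where 5 lay above 0 with a median log2 fold change of 0.02, beside −1.11 for miR396. Between November and February 0 were called, where 4 lay above 0 and the median was −0.37. From September to February 1 fell, miR319, and 0 rose, with a median of −0.08. In that comparison miR319 fell by 1.88 on the log2 scale (SE 0.41, edgeR adjusted p = 0.0394). With the library number as a block it also fell from November to February, by 1.73 (SE 0.27, edgeR adjusted p = 0.0131). From September to November miR319 differed by −0.13 (SE 0.40, edgeR adjusted p = 0.887).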

How the data were processed

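Small RNA of 9 embryo libraries, 3 per month, was analysed. The authors deposited raw read counts per miRNA name with no normalization, per the file headers. Bowtie, HTSeq 0.6.1, TopHat2 2.0.12 and CASAVA 1.8 are listed without roles, per the submitters' processing notes. Which miRNA catalogue was used, and how reads matching several names were handled, is not given in the sources used here, so shares of names can count a read more than once. The mRNA libraries were not used, since their table names no gene products.

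CPM used the total over all 361 names of a library. Names were tested with edgeR 4.0.16 in R 4.3.3 (TMM factors, quasi-likelihood test) on all 145 names that reached 10 counts in 3 or more libraries. Family sums kept the totals and factors of the names. All 9 libraries entered each fit with month as the only term, and Benjamini-Hochberg adjustment ran over all names or families tested, with a threshold of 0.05. The SE is the absolute log2 fold change divided by the square root of the F statistic. DESeq2 1.42.0 was an alternative. Single values per library were compared by 2-sided exact permutation tests (SciPy 1.17.1).

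The row with names of both arms was left out of the 3p share, a choice made after it was seen. Members and lists were chosen with earlier results of these data known. Rows named were those that together cover 90% of miR396 counts, all marked 3p, those past the threshold and those with the lowest and highest fold change. Others, namely vvi-miR396a, ath-miR396a-5p, smo-miR396 and pde-miR396, were chosen after their values were seen.

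Across names, each library's departure from its month's mean correlated at 0.37 to 0.9 between libraries of the same number, for all 9 such pairs. Between other numbers it correlated at −0.84 to 0.8. Departures within a month cancel by construction, so positive values for the same number draw those of other numbers downward. The gap between these ranges is thus partly set by the calculation. The numbers were treated as pairing the libraries, on these values and not on a label. For February 2 the values do not bear the pairing out. That library correlated at 0.80 with September 1 and 0.71 with November 1, but at 0.46 with September 2 and 0.37 with November 2. Statements on numbered pairs and fits with the block carry this limit. The reported fits and permutation tests leave the number out, and those with the number as a block are alternatives, given where they bear on a result.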

Additional observations from a re-analysis of the deposited data

How the results depend on the processing

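The family sum passed the edgeR threshold in none of the 24 alternatives run in each month comparison (15 settings and 9 left-out libraries). Its log2 fold change was −1.47 to −0.65 from September to November over the settings and −1.21 to −0.85 with a library left out, −1.18 to −0.48 and −1.001 to −0.54 from September to February, and 0.09 to 0.57 with a library left out from November to February, where fitting only those months gave −0.0015. With the replicate block it was −1.12 (edgeR adjusted p = 0.303), 0.33 (edgeR adjusted p = 0.619) and −0.79 (edgeR adjusted p = 0.187) in the order September to November, November to February, September to February. The block changed no call of a miR396 name or of the family. No miR396 name was called in any of the 23 alternatives run per comparison.

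Directions that turned were all of values that passed no test, and the cause was not tested. For csi-miR396e-5p from September to November the value was 0.17 with only those months and 0.0020 with DESeq2 and the replicate block, and −1.20 to 0.88 with a library left out. For ppe-miR396a it was −3.37 to 0.89 and for ptc-miR396f −0.039 to 1.32 with a library left out. From November to February ath-miR396b-5p stood at −0.089 with only those months. In that comparison ama-miR396-3p stood at 0.16 with upper quartile factors, 0.058 with near-identical rows counted once, 0.028 with the replicate block and total counts, 0.043 with the replicate block and near-identical rows once, and −0.66 to 0.37 with a library left out. The log2 ratio to ath-miR396b-5p was −0.99 to 0.29 for ama-miR396-3p and −0.089 to 1.63 for csi-miR396e-5p. For libraries numbered 3, ath-miR396b-5p was −0.51 to 0.16. The 3p share differed by −8.18 to 1.37 points from November to February and by −1.74 to 5.82 from September to February with a library left out, and by −0.64 in the latter without libraries numbered 3. The exact permutation test within library numbers, the replicate block for single values, gave p = 0.5 from September to November, 0.25 from November to February and 0.75 from September to February for this share. With 3 pairs that test cannot go below 0.25, so it could not have passed the threshold. In libraries numbered 3, 6 to 9 miR396 names were called with a library left out and 6 or 7 under the other settings. Alternatives with near-identical rows merged, the block with a further change, and those on ratios, shares of a form and library number were chosen after seeing the data. November 2, with 90008 counts, is the least precise library.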
